A study of Mus musculus with 12 samples.

Results

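Respiratory complex I is the entry point of the mitochondrial electron transport chain, and its nuclear subunits and assembly factors carry gene symbols that begin with Nduf. Every gene with such a symbol was taken from 2 tables of expression values, 1 for heart ventricles and 1 for epididymal white adipose tissue (EWAT), which gave 42 of 23042 genes in each table. Of these, 36 encode subunits, 4 encode assembly factors, and Ndufa4 and its paralog Ndufa4l2 were kept apart because Ndufa4 is now placed in complex IV. Each of the 42 genes stood on 1 row of its own, without a joined symbol, and all passed the filter of a mean of at least 1 FPKM in both tissues. FPKM counts the fragments assigned to a gene per unit of transcript length and of mapped fragments in the library.

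RNA was sequenced from wild-type (WT) mice and from mice that overexpress the Mediator subunit MED13 in the heart (MED13cTg), in order to compare gene expression in the heart and in fat. All were male C57BL/6 littermates 6 weeks of age on normal chow, and tissue was taken in the late afternoon from mice with free access to food. There were 3 libraries per genotype and tissue, 12 in all, with no treatment and no further allele given in the labels. The study states that the line was backcrossed to C57BL/6, while the promoter of the transgene, the number of founder lines and the site of insertion were not given in the sources used here. The transgene was visible in ventricles, where Med13 read 13.1, 10.6 and 11.5 FPKM in WT, against 263, 181 and 204 in MED13cTg (log2 difference 4.08, SE 0.165, adjusted p = 0.000281 by limma). In EWAT, Med13 was 10.9, 9.43 and 9.99 FPKM in WT, against 7.84, 11.0 and 10.7 in MED13cTg.

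Complex I takes electrons from NADH, passes them along a flavin and a chain of iron-sulfur clusters to ubiquinone, and pumps protons out of the mitochondrial matrix. Its N module (Ndufs1, Ndufv1, Ndufv2) holds the NADH site and most of the clusters, its Q module, with Ndufs3, Ndufs7 and Ndufs8, holds the quinone site, and its membrane arm is built around subunits encoded by mitochondrial DNA. The 7 genes of these mitochondrial subunits were looked for by symbol, and none was found in either tissue. The accessory subunits surround this core, and heart muscle, with its dense mitochondria, is known for its high content of the complex.

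Ndufs1, the largest subunit of the N module, which carries several iron-sulfur clusters, differed most between genotypes in ventricles. Its neighbours on chromosome 1 were low together with it, so the place where it adjoins the nearest one is shown. In RefSeq (GRCm38.p6), Ndufs1 lies on the minus strand and ends at position 63176822 of chromosome 1, and Eef1b2, a translation elongation factor gene, starts on the plus strand at 63176831. The 2 genes thus run away from each other with 8 bases between them. These 8 bases are in capitals in the plus strand of chr1:63176812-63176841, between the first transcribed bases of Ndufs1 on the left and those of Eef1b2 on the right.
Ndufs1 and Eef1b2 starts: gacttggacctGCAGTTCCgccggaagtag

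In ventricles, Ndufs1 read 495, 516 and 561 FPKM in WT, against 198, 226 and 201 in MED13cTg. The highest MED13cTg value was below the lowest WT value by a wide margin, and each genotype was narrow, at 524 ± 34.0 against 208 ± 15.8 FPKM (SD, n = 3). The log2 difference was -1.33 (SE 0.127, 95% interval -1.63 to -1.03), a ratio of means of 0.397, with an adjusted p of 0.0428 by limma with Benjamini-Hochberg adjustment over 12589 genes. It was the 1 member of 42 that fell past the threshold of 0.05, where 0.0318% of all genes tested were called lower and 0.0238% higher, and no member was called higher. With all libraries kept, the adjusted p was 0.0557 with no filter on low values, 0.0680 with a filter at 5 FPKM and 0.327 with the replicate number as a block, so the call rests on the filter as well. Without any 1 of the 6 libraries the log2 difference stayed between -1.39 and -1.28, and the adjusted p rose above the threshold each time, to between 0.0729 and 0.265. Without both WT replicate 1 and MED13cTg replicate 2, whose libraries read high for most members, the log2 difference was -1.43 and the adjusted p 0.0848.

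The other core subunits of the N module stayed much closer to WT. Ndufv1, which binds the flavin and NADH, was 675, 655 and 688 FPKM in WT, against 489, 641 and 592 in MED13cTg. Ndufv2, which carries a further iron-sulfur cluster beside it, was 1233, 1263 and 1442 FPKM in WT, against 1101, 1172 and 1066 in MED13cTg. For both genes the 3 MED13cTg values lay below the 3 WT values, by a log2 difference of -0.24 each. Neither passed the test (adjusted p = 0.966 for both, limma).

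The Q module showed differences of the same size. Ndufs3, one of its non-cluster subunits, was 809, 789 and 886 FPKM in WT, against 690, 735 and 651 in MED13cTg, again without overlap (log2 difference -0.26, SE 0.133, adjusted p = 0.966, limma). Ndufs7, which holds the last cluster before quinone, was 1193, 711 and 726 FPKM in WT, against 746, 907 and 668 in MED13cTg. Ndufs8, which carries a pair of clusters, was 668, 498 and 537 FPKM in WT, against 483, 530 and 407 in MED13cTg. Both overlapped, with WT replicate 1 the highest library for each. Ndufv1, Ndufv2, Ndufs3, Ndufs7 and Ndufs8 had log2 differences of -0.26 to -0.15, each negative and none past the threshold. With array weights the sign of Ndufs7 turned, to 0.060.

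**Figure D1:**
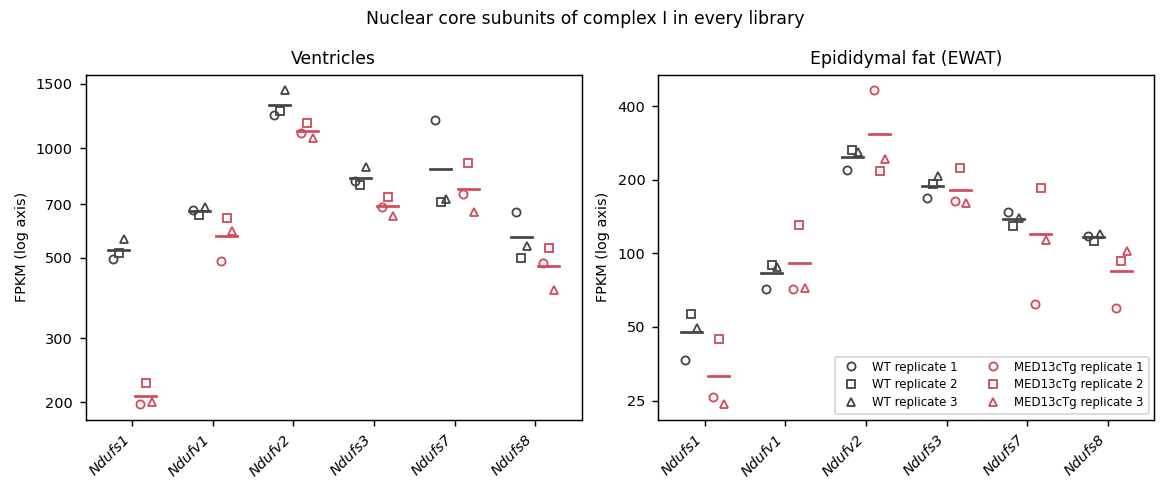
FPKM of nuclear core subunits (log axis) in each library of ventricles (left) and EWAT (right), with WT in grey, MED13cTg in red, a symbol per replicate number and a bar at the mean of 3. In ventricles Ndufs1 lies between 198 and 226 FPKM in MED13cTg and between 495 and 561 FPKM in WT, and no other gene shown separates as far.

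Among the 29 accessory subunits, which surround the core and take part in its assembly and stability, no gene separated the genotypes in ventricles. Their log2 differences ran from -0.30 for Ndufa9 to 0.08 for Ndufb10, with a median of -0.10, and 25 of 29 were negative. The 13 accessory A subunits were all negative, with a median of -0.14. The 10 accessory B subunits, which belong to the membrane arm, were nearer to 0 with a median of -0.03, and the 2 accessory C subunits were at 0.01 each. Ndufab1, the mitochondrial acyl carrier protein that is also a subunit, was 993, 766 and 842 FPKM in WT, against 808, 778 and 649 in MED13cTg, with overlap. The 4 assembly factors, which are absent from the finished complex, were lower in level at 22.5 to 60.8 FPKM and had log2 differences of -0.12 to -0.0005. Ndufa4 read between 4000 and 6217 FPKM, the highest of all members, with a log2 difference of -0.01. Its paralog Ndufa4l2 was 40.5, 30.8 and 28.6 FPKM in WT, against 30.3, 41.5 and 30.8 in MED13cTg.

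Of all 42 members, 37 had a negative log2 difference in ventricles, where 53.3% of all genes tested did, and the members' median was -0.11 against -0.01 for all genes. The genotypes did not overlap for 4 members, all lower in MED13cTg (Ndufs1, Ndufs3, Ndufv1, Ndufv2), where 5.85% of all genes had all MED13cTg libraries below WT and 3.46% above. At an unadjusted p under 0.05, 1 member was lower and none higher, where 3.03% and 1.69% of all genes were. The members' median was negative under both scaling alternatives, with 34 of 42 negative after median-of-ratios scaling and 29 after quantile normalization. It turned to 0.016 with array weights and to 0.039 without WT replicate 1, and was -0.0042 without MED13cTg replicate 3.

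**Figure D2:**
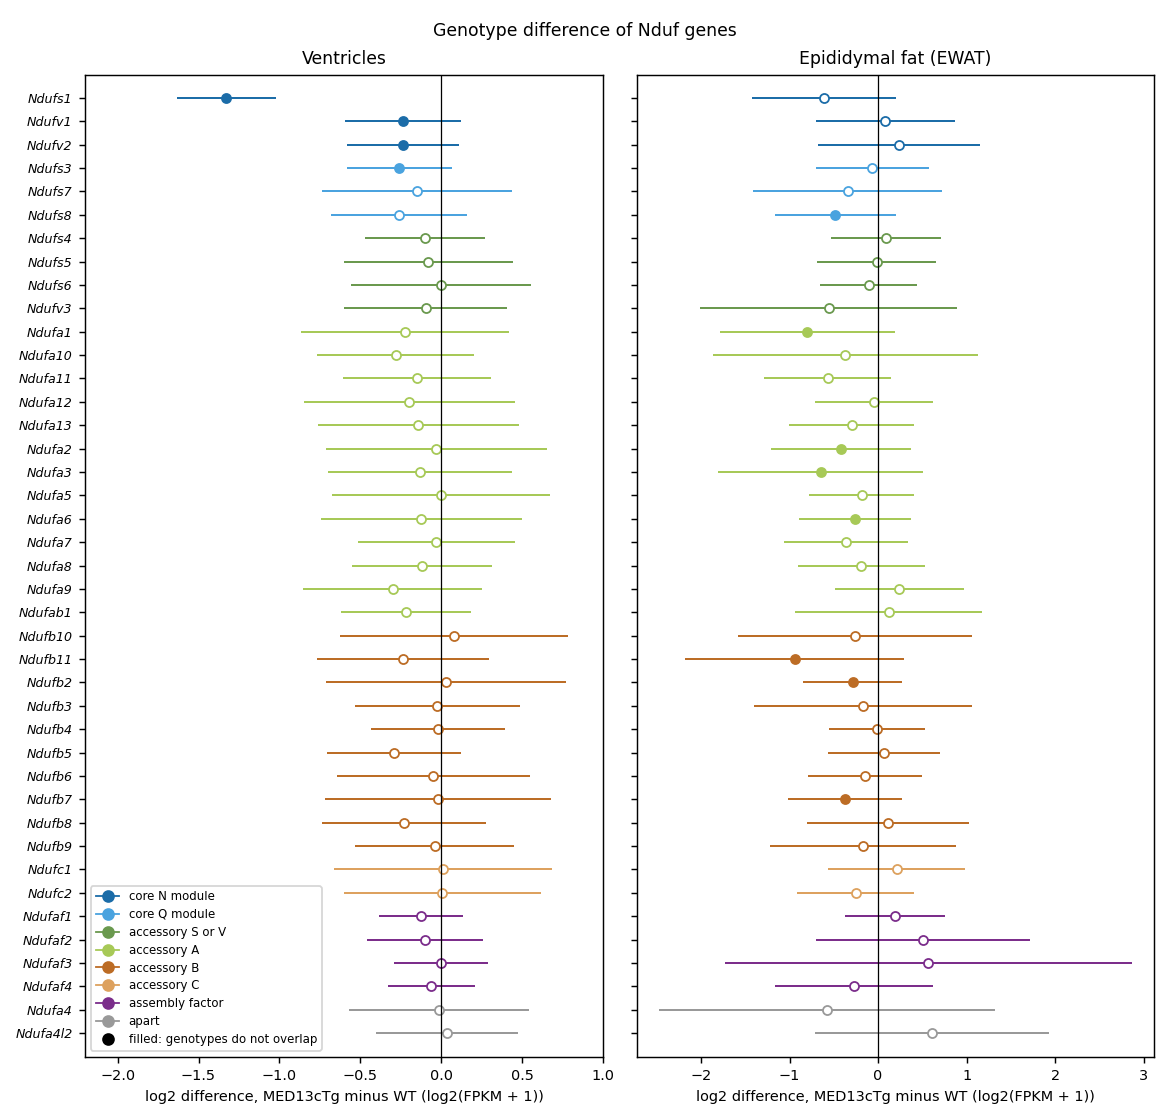
Log2 difference (MED13cTg minus WT, on log2(FPKM + 1)) with its 95% interval from limma for the members in ventricles (left) and EWAT (right), coloured by subunit class, with filled points where the genotypes do not overlap. Ndufs1 at -1.33 in ventricles stands apart from the other genes shown, which lie between -0.30 and 0.08, and the intervals in EWAT are wider.

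The libraries themselves differed in complex I level within each genotype. Relative to the WT mean of each gene, the median over the 41 members other than Ndufs1 was 0.27, -0.18 and -0.11 in the WT ventricle libraries and -0.19, 0.17 and -0.35 in those of MED13cTg (log2). WT replicate 1 held the highest value for 27 of the 41 and MED13cTg replicate 2 for 10, while MED13cTg replicate 3 held the lowest for 33. Of the 41, 1, 0 and 5 were under 0.7 of the WT mean in MED13cTg replicates 1, 2 and 3, where 7%, 8.51% and 4.59% of all genes tested were, and Ndufs1 was under it in all 3. These same libraries read high for short transcripts in general. Genes with a longest coding transcript under 1000 bases deviated from the other libraries of their genotype by a median of 0.40 in WT replicate 1 and 0.36 in MED13cTg replicate 2, and genes of 4000 bases and over by -0.07 in each. The sum of 6 atrial markers was also highest in MED13cTg replicate 2 (747, 496 and 453 FPKM in WT, 998, 2451 and 1165 FPKM in MED13cTg), while that of 6 ventricular markers was 62341 to 90918 FPKM over all ventricle libraries. The atrial markers include Nppa, which the study reports as raised in MED13cTg ventricles, so their sum need not measure atrial tissue. The part of transcript length and of atrial marker RNA in the members' spread was not tested, and in bulk tissue fewer cells of a type and less RNA per cell cannot be told apart.

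Ndufs1 was therefore set against the other subunits of the same library. Measured as log2(FPKM + 1) minus the median over the other 35 subunits, it was -1.27, -0.79 and -0.77 in WT ventricles and -2.10, -2.26 and -1.95 in MED13cTg ventricles. The genotypes did not overlap, and the difference of the means was -1.16. Within a genotype, the deviations of the other 35 subunits over the 6 libraries ran together, with a median pairwise correlation of 0.89, whereas that of Ndufs1 with them was 0.25. In EWAT the order was the other way round, at 0.52 among the other subunits and 0.66 for Ndufs1 with them. These correlations each describe 6 libraries that share their scaling. In ventricles, Ndufs1 was not alone in lacking the rise of WT replicate 1. Its deviation there from the other libraries of its genotype was -0.12, beside -0.13 for Ndufv2, -0.05 for Ndufs3 and 0.01 for Ndufv1. Ndufs7 and Ndufs8 did rise there, by 0.73 and 0.37. The part of transcript length, 2661 bases for Ndufs1, was not tested.

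**Figure D3:**
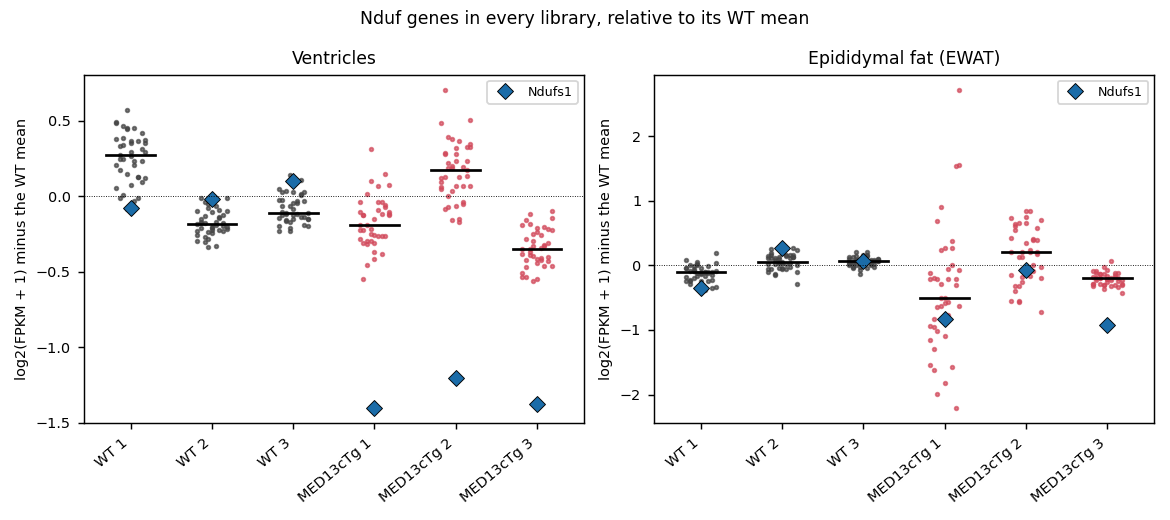
Log2(FPKM + 1) of each member minus its WT mean, by library, in ventricles (left) and EWAT (right), with a dot for each of 41 members, a bar at their median and a diamond for Ndufs1. In ventricles the cloud of members moves up and down with the library (medians from -0.35 to 0.27), and Ndufs1 lies below it in the 3 MED13cTg libraries.

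The genes around Ndufs1 were low together with it in MED13cTg ventricles. In the coordinates of the deposited tables (mm9, per the submitters' processing notes), the locus of Ndufs1 is chr1:63161044-63223396, which it shares with the antisense gene Gm11602. In RefSeq (GRCm38.p6) the 2 genes overlap only in part, from 63143592 to 63158295. Reads from that stretch may not be told apart unless strand was kept, which the labels do not state. Gm11602 was 3.97, 4.25 and 3.87 FPKM in WT, against 1.33, 1.60 and 2.35 in MED13cTg. On one side lies Ino80d, a subunit of the INO80 chromatin remodeller, at 6.71, 6.46 and 6.60 FPKM in WT, against 4.19, 2.93 and 4.03 in MED13cTg. On the other side lies Eef1b2, at 173, 128 and 143 FPKM in WT, against 91.2, 86.2 and 62.9 in MED13cTg. In none of the 3 did the genotypes overlap, and their log2 differences were -0.88 (Gm11602), -0.70 (Ino80d) and -0.89 (Eef1b2).

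The pattern reached further along the chromosome. Fastkd2, which encodes a mitochondrial RNA-binding protein and lies 596 kb from Ndufs1 between locus midpoints, was 11.7, 11.5 and 13.0 FPKM in WT, against 6.21, 5.47 and 6.61 in MED13cTg, a ratio of means of 0.504 (log2 difference -0.88, SE 0.106, unadjusted p = 8.37e-05, adjusted p = 0.117, limma). Nrp2, a receptor for semaphorins and VEGF 385 kb to the other side, was 13.1, 9.46 and 9.55 FPKM in WT, against 9.11, 9.33 and 5.53 in MED13cTg, without overlap but with a narrow gap. Between them, Adam23 was under the filter of 1 FPKM, at 0.972, 0.987 and 1.04 FPKM in WT, against 0.647, 0.519 and 0.376 in MED13cTg. Gpr1 and Zdbf2 were at or under 0.729 FPKM in every ventricle library, with all MED13cTg values below WT, and Zdbf2 was listed at 0 in the 3 MED13cTg libraries. Mdh1b, at or under 0.155 FPKM, and the small nucleolar RNA gene Snora41, listed at 0 in 3 of 6 libraries, overlapped.

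Of the tested genes from Nrp2 to Fastkd2, 6 of 6 had all MED13cTg ventricle libraries below WT, where 5.85% of all genes did. For this count, microRNA and small nucleolar RNA genes were left out. The 6 span 981 kb between midpoints, with ratios of means of 0.397 to 0.745, and include Ndufs1 itself and Gm11602, which shares its locus. The bounds came from a neighbour list chosen with results known, so the contrast with genes outside them is a description only. None of the 6 other than Ndufs1 passed the adjusted threshold. Within 5 Mb on either side, 1 of 29 tested genes further towards the start of the chromosome and 0 of 14 further towards its end were lower without overlap, with median log2 differences of -0.01 and 0.03. The nearest tested genes outside were Pard3b (ratio of means 0.657, with overlap) and Klf7 (1.07). In the whole ventricle table, these 6 made the longest run of consecutive tested genes with all MED13cTg libraries below WT, and the next longest was 3 (Grb14, Cobll1 and Slc38a11). With Snora41 counted, the run ended after 5 genes. In the other direction the longest run was 2.

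**Figure D4:**
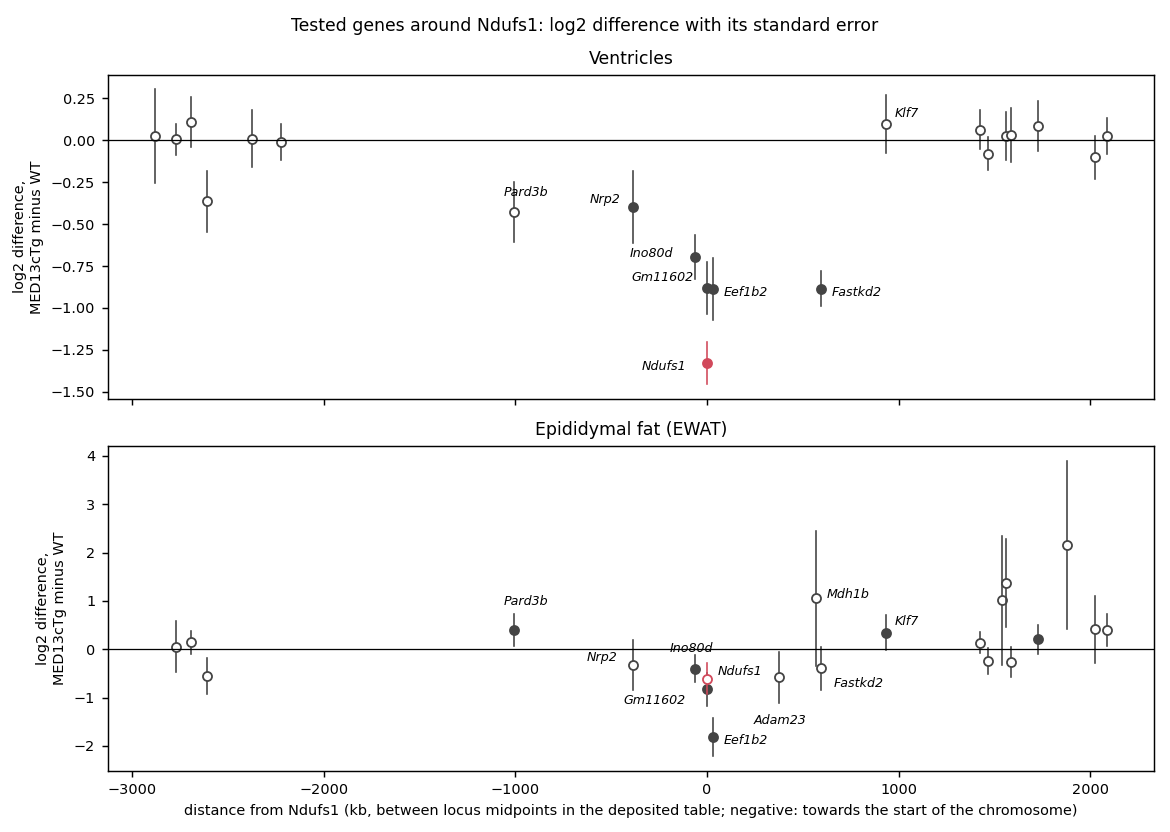
Log2 difference (MED13cTg minus WT) with its SE for tested genes within 3000 kb of Ndufs1, against the distance between locus midpoints, in ventricles (top) and EWAT (bottom), with Ndufs1 in red and filled points where the genotypes do not overlap. In ventricles the genes from Nrp2 to Fastkd2 lie between -1.33 and -0.40 and all are filled, while Klf7 is at 0.10, and the EWAT axis covers a wider range.

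EWAT needs its libraries described first. Rank correlations among the 3 WT libraries and MED13cTg replicate 3 were between 0.958 and 0.972, while MED13cTg replicate 1 reached at most 0.494 with any other library and MED13cTg replicate 2 at most 0.852. The summed level of 12 epididymis markers was 64449, 60107 and 77142 FPKM in WT, against 9866, 220 and 57654 in MED13cTg. That of 7 germ cell markers was 213, 228 and 303 FPKM in WT, against 13638, 5.83 and 344 in MED13cTg. That of 10 adipocyte markers was 13463, 32301 and 22305 FPKM in WT, against 1240, 81362 and 17667 in MED13cTg. No marker of these lists was at 0 throughout, and the part of these tissues in each difference below was not tested.

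In EWAT, none of the 42 members passed the adjusted threshold by limma over 14967 genes, where 0% of all genes were called higher and 0.0134% lower, and none had an unadjusted p under 0.05, where 0.14% and 1.11% did. Ndufs1 was 36.6, 56.8 and 49.3 FPKM in WT, against 25.9, 44.6 and 24.2 in MED13cTg. MED13cTg replicate 2 lay inside the WT range and the other MED13cTg libraries below it. Each MED13cTg library was below the WT library of the same number, a pairing that no label gives. With the replicate block the adjusted p was 0.751 (limma). The log2 difference was -0.61 (SE 0.323, 95% interval -1.41 to 0.19, adjusted p = 0.738, limma). Relative to the other 35 subunits of its library, Ndufs1 was -2.50, -2.01 and -2.12 in WT and -2.41, -2.44 and -2.95 in MED13cTg, a difference of -0.39 with overlap, which was -0.22 without MED13cTg replicate 3 and -0.74 without MED13cTg replicates 1 and 2. Ndufb11 and Ndufa1 were lower on this measure, by -0.70 and -0.53.

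The genotypes did not overlap for 8 members in EWAT, all lower in MED13cTg, where 7.8% of all genes were lower without overlap and 4.88% higher. Short transcripts were lower in MED13cTg EWAT in general. The median log2 difference was -0.25 for genes with a longest coding transcript under 1000 bases and -0.15 at 1000 to 2000 bases. It was -0.02 at 2000 to 4000 bases and 0.10 at 4000 and over. The part of transcript length in the 8 members was not tested. The largest differences among the 8 belonged to the membrane arm subunits Ndufb11 and Ndufa1. Ndufb11 was 352, 381 and 395 FPKM in WT, against 94.1, 254 and 309 in MED13cTg (log2 difference -0.94). Ndufa1 was 502, 500 and 555 FPKM in WT, against 177, 355 and 416 in MED13cTg (log2 difference -0.80). In both, MED13cTg replicate 1 was by far the lowest library.

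Next were Ndufa3, Ndufs8 and Ndufa2. Ndufa3, a small membrane subunit, was 674, 665 and 689 FPKM in WT, against 228, 638 and 550 in MED13cTg. Ndufs8 was 118, 112 and 120 FPKM in WT, against 59.9, 93.2 and 102 in MED13cTg. Ndufa2, an accessory subunit of the N module, was 710, 730 and 845 FPKM in WT, against 443, 678 and 612 in MED13cTg. Their log2 differences were -0.65, -0.49 and -0.42, and again MED13cTg replicate 1 was the lowest library of each. Without that library the log2 differences were smaller, at -0.42 for Ndufb11, -0.43 for Ndufa1, -0.19 for Ndufa3, -0.25 for Ndufs8 and -0.24 for Ndufa2. The remaining 3 were Ndufb7 (-0.38), Ndufb2 (-0.29) and Ndufa6 (-0.26).

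Ndufv1, Ndufv2, Ndufs3 and Ndufs7 overlapped in EWAT, and their MED13cTg values were far apart. Ndufv1 was 71.8, 89.8 and 87.8 FPKM in WT, against 71.6, 130 and 72.1 in MED13cTg. Ndufs7 was 148, 129 and 140 FPKM in WT, against 62.0, 186 and 113 in MED13cTg. Both were highest in MED13cTg replicate 2, the library with the most adipocyte marker RNA. Ndufv2 was 220, 265 and 261 FPKM in WT, against 466, 218 and 244 in MED13cTg, so that its highest library was MED13cTg replicate 1. Ndufs3 was 168, 192 and 208 FPKM in WT, against 163, 223 and 161 in MED13cTg, with a log2 difference of -0.07 that became 0.032 after quantile normalization.

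MED13cTg replicate 1 also held the highest values of 3 low members. The assembly factor Ndufaf3 was 53.1, 37.6 and 49.6 FPKM in WT, against 308, 27.8 and 37.5 in MED13cTg. Ndufaf2, another assembly factor, was 22.2, 29.2 and 27.3 FPKM in WT, against 77.9, 29.4 and 22.6 in MED13cTg. Ndufa4l2 was 9.35, 14.3 and 12.9 FPKM in WT, against 37.2, 20.3 and 8.69 in MED13cTg. In each the genotypes overlapped. Ndufab1 was 104, 153 and 158 FPKM in WT, against 92.1, 246 and 143 in MED13cTg, with its highest value in replicate 2.

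MED13cTg replicate 3, the EWAT library most like WT, gives a narrower view of the region around Ndufs1. In this library Ndufs1 was at 0.508 of its WT mean, whereas none of the other 41 members was under 0.7 of theirs, although 40 of the 41 were below their WT mean. Of all genes tested, 4.48% were under 0.7 of their WT mean in this library. In MED13cTg replicates 1 and 2, 20 and 4 of the 41 members were, beside 41.4% and 33.9% of all genes. In MED13cTg replicate 3, all 8 tested genes from Nrp2 to Fastkd2 were under 0.7. Mdh1b counts among them only because MED13cTg replicate 1, at 37.0 times its WT mean of 1.02 FPKM, carried it past the filter. For Mdh1b, WT replicate 3 was lower still, at 0.524. For Adam23, WT replicate 1 was also under 0.7, at 0.636. Eef1b2 was at 0.481, Gm11602 at 0.486, Fastkd2 at 0.447, Nrp2 at 0.517, Adam23 at 0.380, Mdh1b at 0.594 and Ino80d at 0.632 of the WT mean, while Klf7 was at 1.31. When MED13cTg replicates 1 and 2 were left out of the fit, the log2 difference of Ndufs1 was -0.93 (SE 0.276, unadjusted p = 0.0268, adjusted p = 0.999, limma). That fit assumes that the lone MED13cTg library varies like those of WT.

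With all 3 MED13cTg libraries, the neighbours in EWAT were less uniform. Eef1b2 was 325, 330 and 359 FPKM in WT, against 62.5, 85.7 and 162 in MED13cTg, with no overlap and a log2 difference of -1.81 (SE 0.394, unadjusted p = 0.00412, adjusted p = 0.738, limma). Ino80d was 2.80, 2.32 and 2.52 FPKM in WT, against 1.34, 2.16 and 1.61 in MED13cTg. Gm11602 was 2.02, 2.11 and 1.77 FPKM in WT, against 0.343, 0.755 and 0.955 in MED13cTg. These 3 of 8 tested genes separated the genotypes, all lower in MED13cTg, where 7.8% of all genes did. In the whole EWAT table all 4 runs of at least 4 genes lower without overlap lay elsewhere. Fastkd2 was 4.17, 4.14 and 4.39 FPKM in WT, against 6.65, 1.82 and 1.89 in MED13cTg, so that its replicate 1 was above WT and the other libraries below. Mdh1b, a malate dehydrogenase homolog, was at 37.6 FPKM in MED13cTg replicate 1 and at or under 1.56 FPKM elsewhere.

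Levels were higher in ventricles than in EWAT for 42 of 42 members in WT, although each tissue has its own table and no test was made across them. The share of all genes that were higher in ventricles was not computed. The WT EWAT libraries also held epididymis marker RNA, at sums of 64449, 60107 and 77142 FPKM, beside 13463, 32301 and 22305 for adipocyte markers. The ratios are therefore not those of heart against fat alone. The ratio of WT means was 4.32 at the median. Ndufs1 had the highest ratio, 11.0 (524 against 47.6 FPKM), followed by Ndufv1 at 8.09 and Ndufa5, an accessory subunit of the matrix arm, at 7.99. The lowest were Ndufaf3 at 1.20, Ndufa7 at 1.54 and Ndufaf2 at 1.73. In WT ventricles Ndufs1 ranked 32nd of 42 members by level and Ndufa4 first.

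Genes that act with complex I gave no further call. Of 10 assembly factors without an Nduf symbol in the tables, 8 had a negative log2 difference in ventricles (53.3% of all genes tested did) and 3 were lower without overlap (5.85% of all genes), namely Nubpl (-0.32), which delivers iron-sulfur clusters to complex I, Foxred1 (-0.28) and Ndufaf6, listed as 2310030N02Rik. The adjusted p was 0.966 or above for all 10 by limma. Ndufaf5 and Ndufaf8, listed under older symbols, overlapped in both tissues. Of 14 genes of iron-sulfur cluster assembly, 9 were negative in ventricles with a median of -0.09, and 2, Isca1 and Hscb, were lower without overlap, beside the same 5.85%. The 6 genes of complex II, which feeds electrons from succinate into the chain, were all negative (-0.33 for Sdha to -0.01 for Sdhaf2) and all overlapped. Of 5 other enzymes that feed quinone, Prodh was lowest, at 41.0, 47.1 and 40.6 FPKM in WT, against 22.4, 17.2 and 37.9 in MED13cTg. In EWAT none of these genes passed the adjusted threshold, and medians ran from -0.09 for the quinone donors to 0.12 for iron-sulfur cluster assembly.

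Upstream sequence was also described. Whether it bears on the movement of members from library to library was not tested, and the libraries that read high for most members did so for short transcripts in general. RefSeq windows (GRCm38.p6) of 250 bases before the start were matched for 37 members, Ndufs1 not among them. In GENCODE M21 some windows hold exons, among them that of Ndufs3, with exons of Ndufs3 and of Kbtbd4, so they are not all untranscribed. Both strands were searched for 4 short motifs. GCATGCGC, the inner part of the NRF1 site, was found in 4 of 37 (10.8%, against 2.56% of 27025 genes): Ndufa6, Ndufa8, Ndufa11 and Ndufaf4. CCGGAAG, the ETS core, was found in 4 (10.8% against 7.83%), among them Ndufs3. The same letters stand, unmarked, in the stretch printed above, within the first bases of Eef1b2 and upstream of the Ndufs1 start. No window of Ndufs1 was searched, so they are not counted here. AAGGTCA, the ERR half-site, was found in 3 (8.11% against 4.70%), namely Ndufb2, Ndufb4 and Ndufs5, and AAGATGGC, the YY1 core, in 0 (against 1.83%).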

How the data were processed

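TopHat alignments and Cufflinks estimates at default settings gave the deposited FPKM values, made by the authors as 1 table per tissue (build mm9 per the submitters' processing notes, with versions not given in the sources used here). The authors' mean and fold columns (3 per table) and 1 unnamed column of EWAT values were not used. Absolute depth is unknown. Ratios to WT replicate 1 among values under 0.15 FPKM peaked at relative depths of 0.920 to 1.03 in ventricles. In EWAT such a peak held as few as 8 genes, too few to rely on.

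For each tissue, log2(FPKM + 1) was fitted with limma 3.58.1 (R 4.3.3; lmFit, eBayes with trend, no covariate) over the genes whose 6 libraries averaged 1 FPKM or more. Benjamini-Hochberg adjustment ran over all genes tested, with a threshold of 0.05. This scale understates changes of low genes. No test was made across tissues. Python 3.11.15, pandas 2.3.3, numpy 2.4.6 and matplotlib 3.10.9 served for tables and plots. In simulated data, all 6 libraries were drawn from the WT means and the spread within WT, each gene on its own, and 200 genes were changed by 1.5 (log2). Of these, 158 of 200 were recovered among 12365 genes in ventricles and 155 of 200 among 13457 genes in EWAT. With none changed, 0 genes were called. The real MED13cTg EWAT libraries differ far more (rank correlation 0.350 between replicates 1 and 2), so the EWAT figure does not show what the real comparison could detect. In real ventricles, genes moved together from library to library (median pairwise correlation 0.89 among 35 subunits), which the simulation lacks. Its 0 calls therefore do not show how many false calls the real comparison would make.

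Groups and replicate numbers came from the labels, which name littermates but no animal identifiers, so p-values measure only the spread between these samples. Deviations of same-numbered libraries of the 2 genotypes from their group means correlated at 0.35, 0.30 and 0.14 in EWAT. WT replicate 3 and MED13cTg replicate 2, which differ in number, reached 0.17 there. In ventricles the same-numbered values were 0.085, -0.19 and 0.14. No label pairs the libraries and these values do not settle it, so the main fit was unpaired and the replicate block was an alternative. The labels and the study's methods differ on age and RNA amount, and the labels were followed.

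The members, lists, motifs and tests were chosen with earlier results of these data known. Named with values are core subunits, members past the threshold, up to 5 members with the largest rise and fall among those without overlap, Ndufa4l2, Ndufab1, Med13, the neighbours of Ndufs1, and extremes of lists. For 1 member, values of its own are not reported here. Gm11602, Pard3b, Klf7, Ndufaf2 and Ndufaf3 were named after their values were seen. From the assembly factor list, 1 symbol was dropped because RefSeq gives it to another gene, and Ndufaf5 and Ndufaf8 were added. Further marker lists, for macrophages and red blood cells, summed to 200 to 331 and 943 to 2532 FPKM in ventricles and to 55.4 to 332 and 49.7 to 1074 FPKM in EWAT. Transcript length is that of the longest coding transcript in GENCODE M21, known for 85.2% of tested ventricle genes and 83.0% of tested EWAT genes.

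Alternatives were a pseudocount of 0.1, no filter, a filter at 5 FPKM, median-of-ratios and quantile scaling, no trend, array weights, a replicate block, each library left out, summed rows, joined entries left out and, in EWAT, MED13cTg replicates 1 and 2 left out. Leaving out WT replicate 1 with MED13cTg replicate 2 in ventricles was chosen after seeing the data.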

Additional observations from a re-analysis of the deposited data

How the results depend on the processing

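In ventricles, the fall of Ndufs1 kept its direction in all 17 alternatives, between -1.43 and -1.22 (log2), with adjusted p between 0.00508 and 0.327 by limma. Both filter settings, no trend, the replicate block, summed rows and joined entries left out could not move the difference itself. No member stood on a joined row, so leaving joined entries out repeated the main fit. As the genotypes do not overlap, leaving libraries out could not turn the sign. In 10 of the 17 alternatives Ndufs1 missed the threshold, so that 0 members were called. Its value was -1.33 with no filter (adjusted p = 0.0557), with a filter at 5 FPKM (0.0680) and with the replicate block (0.327), and -1.43 without WT replicate 1 and MED13cTg replicate 2. With 1 library left out it was -1.39 to -1.28, and the count of members called was 0 each time. Fewer samples enter these last fits, and the cause of the other losses was not tested. By the labels, the replicates share only a number. In ventricles the block moved the members called from 1 to 0, and all genes called lower from 4 to 1. Over all alternatives, 0 to 8 genes were called lower and 2 to 7 higher in ventricles, against 4 and 3, and 0 to 4 lower and 0 to 17 higher in EWAT, against 2 and 0.

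In EWAT, 0 members were called in every alternative, the replicate block included, and Ndufs1 stayed negative, between -0.93 and -0.45. The settings that could not move the difference in ventricles left Ndufs1 at -0.61 here too. Relative to the other subunits it differed by -0.39 with all libraries, -0.54 to -0.22 with 1 library left out (-0.22 without MED13cTg replicate 3) and -0.74 without MED13cTg replicates 1 and 2, and the cause was not tested. The medians of the members moved by less than the spread between libraries (SD 0.249 in ventricles, 0.255 in EWAT) in every alternative of both tissues. That spread is wider than the medians themselves, -0.11 and -0.18, so a lost or turned sign also stays within it. In ventricles the median turned to 0.016 with array weights and to 0.039 without WT replicate 1.

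Signs turned for core subunits with small differences, none of which passed the threshold. In ventricles, Ndufs7 was 0.060 with array weights and -0.28 to 0.095 with 1 library left out. In EWAT, with 1 library left out, Ndufs3 ran from -0.22 to 0.016, Ndufs7 from -0.72 to 0.063, Ndufv1 from -0.20 to 0.23 and Ndufv2 from -0.10 to 0.44. Ndufs3 was 0.032 with quantile scaling and Ndufv2 -0.049 with array weights. Without MED13cTg replicates 1 and 2, Ndufv1 was at -0.20 and Ndufv2 at -0.022. Ndufs8 kept its sign, at -0.25 without MED13cTg replicate 1 and -0.19 without replicates 1 and 2, against -0.49. Low neighbours such as Gpr1 and Zdbf2 are limited by depth.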
